A study of Homo sapiens with 9 samples.

Results

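Hypoxia-inducible factor (HIF) target genes and the enzymes of glycolysis were followed across 3 forms of the breast cancer line MDA-MB-231. The genes were 37 listed symbols, listed by name, out of 26364 genes in the count files. Of them, 16 are glycolytic enzymes and 21 are other HIF targets, and all 37 were present in all 9 files and had enough counts to be tested. The first group had been infected with a lentivirus (pLVX) for MEL-18 T334A, a threonine-to-alanine mutant that the labels call phosphorylation-deficient. The second carried wild-type MEL-18 (MEL-18 WT), and the third carried the empty vector (CON), with 3 libraries per group. All 3 groups had thus been through lentiviral infection and were grown in DMEM with 10% FBS for 48 h. The labels give no oxygen setting, so the comparisons are between constructs and not between oxygen levels.

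MEL-18 is the product of PCGF2 and belongs to the gene-silencing Polycomb complex PRC1. HIF is a dimer of an oxygen-sensitive alpha subunit (HIF-1 alpha or HIF-2 alpha) and the stable subunit ARNT. With oxygen, prolyl hydroxylases (the EGLN enzymes) mark the alpha subunit for degradation through the VHL ubiquitin ligase, so its level is set largely in the protein and not in the RNA. Without oxygen the dimer binds short DNA elements beside genes for acid-base balance, blood vessel growth, mitophagy, matrix synthesis and glycolysis. Many tumour cells also run glycolysis at a high rate in the presence of oxygen.

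PCGF2 was measured at 1420 ± 30.9 CPM (counts scaled to library size, mean ± SD, n = 3) in MEL-18 T334A and 1286 ± 6.55 CPM in MEL-18 WT cells, against 22.7 ± 0.878 CPM in CON cells, so the libraries labelled MEL-18 and those labelled CON matched their labels. Gene counts do not show which MEL-18 libraries carry T334A. MEL-18 T334A cells held more of this RNA than MEL-18 WT cells (log2 fold change 0.14 ± 0.03, edgeR adjusted p = 1.48e-04), and the part of that difference in the results was not tested. Reads of the transgene and of the cell's own PCGF2 cannot be told apart. The libraries held 31643722 to 37005302 counts. The cells are labelled epithelial. Of 9 epithelial markers, KRT8, KRT18 and KRT19 stood at 86.6 to 321 CPM as group means, EPCAM, CLDN4 and CLDN7 at 6.33 to 27.9 CPM, ESRP1 at 0.562 to 0.671 CPM, and CDH1 and GRHL2 at or below 0.144 CPM. Of 6 mesenchymal markers, VIM, AXL, FN1 and ZEB1 stood at 72.6 to 1545 CPM, CDH2 at or below 0.616 CPM and TWIST2 had no count. The 9 epithelial markers summed to 706 to 740 CPM in MEL-18 T334A, 772 to 777 CPM in MEL-18 WT and 710 to 736 CPM in CON libraries. Of the 7 that were tested, 4 rose and 2 fell in MEL-18 T334A against MEL-18 WT, 4 rose and 1 fell in MEL-18 T334A against CON, and 2 rose in MEL-18 WT against CON. The shares called were 85.7%, 71.4% and 28.6%, beside 40.9%, 45.9% and 28.8% of all tested genes. Of 5 mesenchymal markers tested, 3 rose and 1 fell in MEL-18 T334A against CON (80% called). In each of the other comparisons, 1 rose and 1 fell (40% called). All 8 blood and endothelial markers were below 1 CPM as group means, and summed to 0.733 to 1.55 CPM in MEL-18 T334A, 1.30 to 1.96 CPM in MEL-18 WT and 2.84 to 3.17 CPM in CON libraries. Of the 4 tested, PECAM1 and CDH5 fell in both MEL-18 lines against CON, PTPRC fell in MEL-18 WT against CON (-1.06 ± 0.39, edgeR adjusted p = 0.0399), and VWF was not called. In MEL-18 T334A against MEL-18 WT, 1 of the 4 fell (25% called), beside 40.9% of all tested genes. The shares were 50% in MEL-18 T334A against CON and 75% in MEL-18 WT against CON, beside 45.9% and 28.8%. PECAM1 was at 0.330, 0.474 and 0.951 CPM, CDH5 at 0.204, 0.605 and 0.948 CPM and PTPRC at 0.355, 0.309 and 0.635 CPM in MEL-18 T334A, MEL-18 WT and CON cells. The part of the epithelial, mesenchymal, blood and endothelial markers in the results was not tested. The labels do not say whether the replicates came from separate infections or whether the lines were pools or clones. The p-values therefore set the group differences against the spread between these cultures, and the construct cannot be told apart from the infected line.

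MEL-18 T334A cells had lower RNA for a group of HIF targets and glycolytic enzymes than MEL-18 WT cells. Among the 21 other HIF targets, 9 fell and 3 rose, and among the 16 glycolytic enzymes, 8 fell and 3 rose (edgeR quasi-likelihood F test, adjusted over 14738 genes, called below 0.05). Of all tested genes, 40.9% were called in this comparison, 20.0% lower and 21.0% higher. The median log2 fold change was -0.08 for the other HIF targets and -0.08 for the glycolytic enzymes, beside -0.0033 for all tested genes. The libraries of the groups did not overlap for 17 members on the lower side and 4 on the higher side, where this held for 24.0% and 24.7% of all tested genes. In RNA from whole cultures, fewer cells with a transcript and less transcript per cell cannot be told apart.

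Against CON cells, MEL-18 T334A cells had changes in both directions. Of the other HIF targets 8 fell and 6 rose, and of the glycolytic enzymes 6 fell and 4 rose, where 45.9% of all tested genes were called, 22.5% lower and 23.4% higher. The medians were -0.05 for the other HIF targets and -0.04 for the glycolytic enzymes, beside -0.0022 for all tested genes. The libraries did not overlap for 17 members on the lower and 10 on the higher side, beside 25.2% and 26.2% of all genes. The members called in MEL-18 WT against CON were mostly higher. Of the other HIF targets 10 rose and 2 fell (57.1% called), and of the glycolytic enzymes 4 rose and 0 fell (25% called). Of all tested genes, 28.8% were called, 14.4% higher and 14.4% lower, so the share of glycolytic enzymes called was not above that of all genes. Of the 16 glycolytic enzymes, 6 had a log2 fold change below 0. At an unadjusted p below 0.05, 6 glycolytic enzymes were higher and 0 lower, and DESeq2 and limma voom each also called 4 higher and 0 lower. The medians were 0.12 for the other HIF targets and 0.03 for the glycolytic enzymes, beside -0.0017 for all tested genes. The libraries did not overlap for 17 members on the higher and 2 on the lower side, beside 21.4% and 21.3% of all genes. Both comparisons with CON share the same 3 CON libraries. With library totals alone, 7 glycolytic enzymes were called in MEL-18 WT against CON, all higher.

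**Figure D1:**
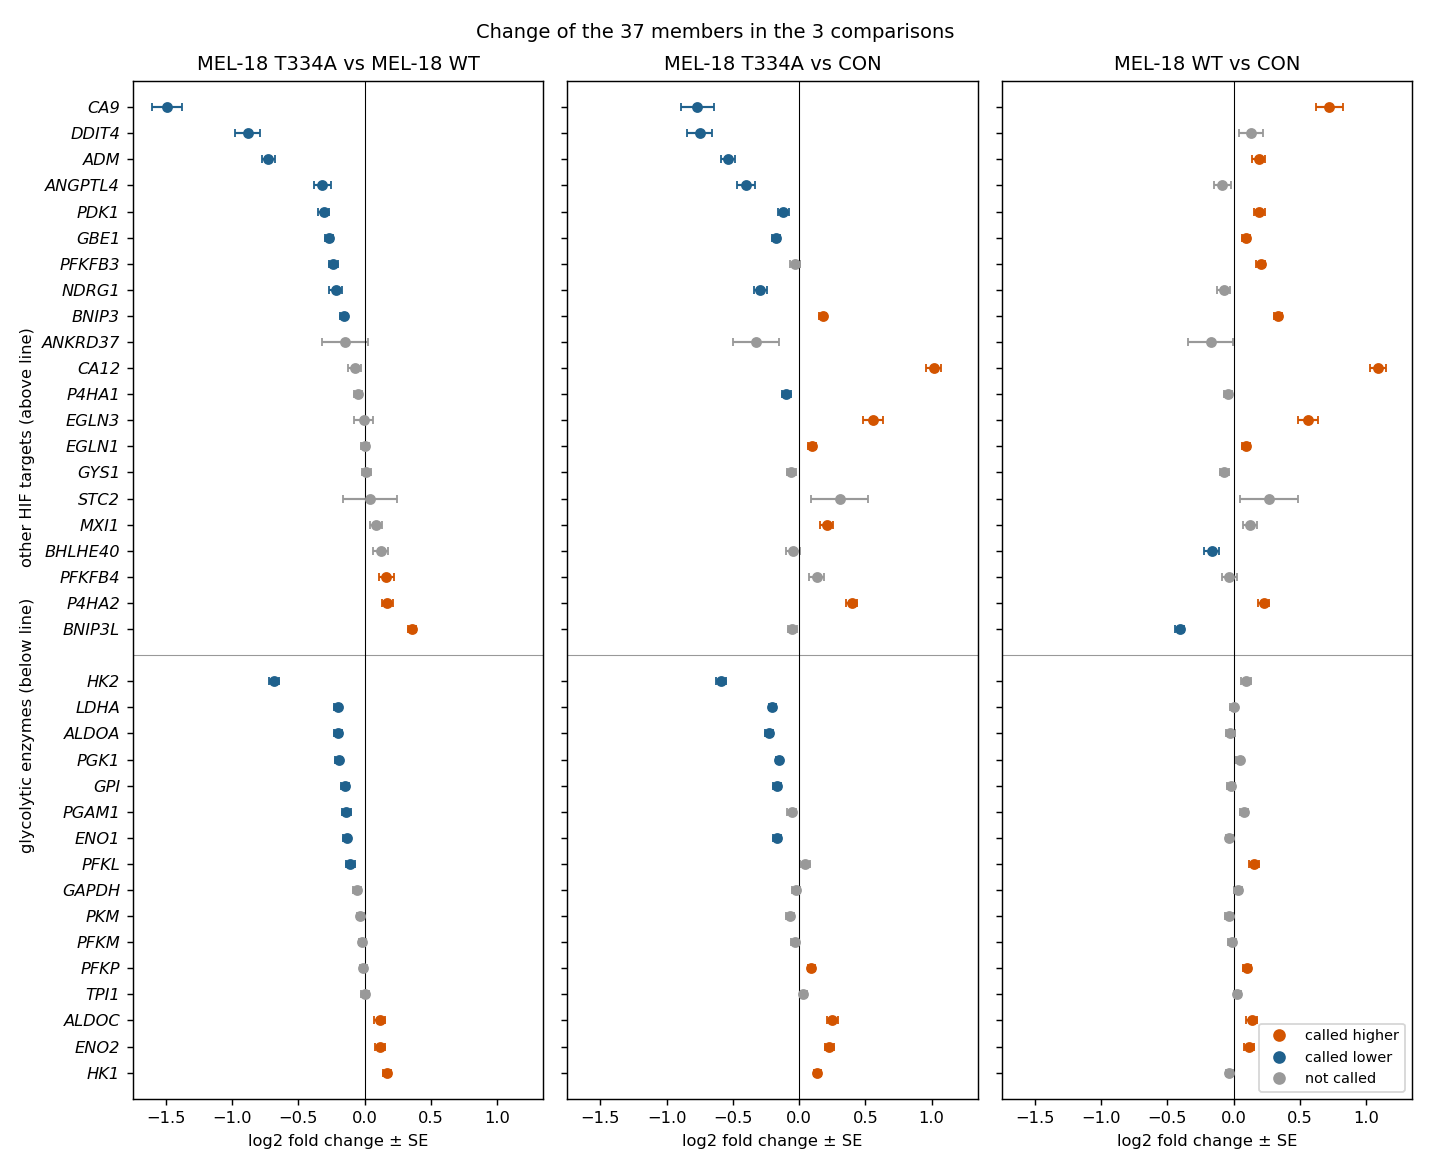
Log2 fold change (x axis, ± SE) of each of the 37 members (y axis) in MEL-18 T334A against MEL-18 WT, MEL-18 T334A against CON and MEL-18 WT against CON; orange points were called higher, blue lower, grey not called. CA9 lies farthest to the left with MEL-18 T334A against MEL-18 WT (-1.49), CA12 lies near 1 in both comparisons with CON, and most glycolytic enzymes lie within 0.25 of 0.

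The promoters of the members that changed most are shown with the letters that HIF binds. HIF contacts a core of ACGTG or GCGTG, and ACGTG is also contained in CACGTG, a motif of the MYC and BHLHE40 family of factors. The windows below are the 250 bases before the annotated start (RefSeq, GRCh38.p14), read 5′ to 3′ on the strand of the gene. Capitals mark each match on either strand, so CACGT and CACGC are matches on the opposite strand. CA9, ADM, DDIT4 and HK2 were lower in MEL-18 T334A cells than in both other groups, and CA12 and EGLN3 were higher in both MEL-18 lines than in CON. The windows lie at chr9:35673678-35673927 (+ strand) for CA9, chr11:10304823-10305072 (+ strand) for ADM and chr10:72273674-72273923 (+ strand) for DDIT4. Those of HK2, CA12 and EGLN3 lie at chr2:74833877-74834126 (+ strand), chr15:63381847-63382096 (- strand) and chr14:33951075-33951324 (- strand), in that order.
CA9: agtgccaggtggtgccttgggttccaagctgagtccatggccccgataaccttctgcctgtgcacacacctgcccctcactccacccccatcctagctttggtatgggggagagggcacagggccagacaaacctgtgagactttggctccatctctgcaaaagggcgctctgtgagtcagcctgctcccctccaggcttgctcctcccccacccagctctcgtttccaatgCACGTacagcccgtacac
ADM: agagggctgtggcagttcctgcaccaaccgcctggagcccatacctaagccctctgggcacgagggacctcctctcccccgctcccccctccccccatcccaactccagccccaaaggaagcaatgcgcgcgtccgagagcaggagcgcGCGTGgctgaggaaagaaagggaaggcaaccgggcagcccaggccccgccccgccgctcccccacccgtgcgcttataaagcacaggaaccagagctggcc
DDIT4: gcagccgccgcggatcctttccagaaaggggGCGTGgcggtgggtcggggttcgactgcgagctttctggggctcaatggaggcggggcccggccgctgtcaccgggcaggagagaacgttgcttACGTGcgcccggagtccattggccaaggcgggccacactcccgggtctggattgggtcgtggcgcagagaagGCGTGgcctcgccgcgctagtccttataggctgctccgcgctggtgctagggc
HK2: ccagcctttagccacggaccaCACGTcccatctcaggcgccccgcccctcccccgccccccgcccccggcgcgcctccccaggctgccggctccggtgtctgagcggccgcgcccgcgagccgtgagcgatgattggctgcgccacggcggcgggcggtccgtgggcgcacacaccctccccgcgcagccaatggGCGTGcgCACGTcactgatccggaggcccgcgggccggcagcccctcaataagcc
CA12: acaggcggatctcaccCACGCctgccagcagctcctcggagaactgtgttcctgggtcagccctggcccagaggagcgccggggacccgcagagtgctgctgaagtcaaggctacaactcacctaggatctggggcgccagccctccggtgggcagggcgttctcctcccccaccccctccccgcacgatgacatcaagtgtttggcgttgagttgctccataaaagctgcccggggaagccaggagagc
EGLN3: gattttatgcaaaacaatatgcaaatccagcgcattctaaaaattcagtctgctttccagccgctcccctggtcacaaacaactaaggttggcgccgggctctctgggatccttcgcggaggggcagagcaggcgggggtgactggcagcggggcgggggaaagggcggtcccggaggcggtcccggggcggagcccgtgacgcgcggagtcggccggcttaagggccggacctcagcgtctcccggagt

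The match of CA9 lay 18 to 14 bases before the start and was its 1 match in the window. ADM and CA12 also had 1 match each, DDIT4 and HK2 had 3 each, and EGLN3 had 0, which says nothing of sites outside these letters or this window. Windows were found for 35 of the 37 members, without BNIP3L and NDRG1. A match was present in 15 of 19 other HIF targets (78.9%) and in 10 of 16 glycolytic enzymes (62.5%), beside 43.1% of all 27303 promoter windows of the same length. With ACGTG alone on either strand, the shares of windows with a match were 47.4% and 50.0%, beside 18.7%. The windows of all promoters were not limited to tested genes or matched for base content. The members were also listed as HIF targets or glycolytic enzymes, so no conclusion is drawn from the higher shares. With overlapping matches counted once, BNIP3 held the most matches, 5 in all. Members with matches thus occurred among genes that fell, rose and were not called, and a match in this window is a description of the letters and not of HIF binding.

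The carbonic anhydrases CA9 and CA12, membrane enzymes that turn carbon dioxide into bicarbonate and acid outside the cell, moved differently. CA9, a classical HIF-1 target, had 3.01, 3.54 and 2.42 CPM in MEL-18 T334A cells, 8.19, 8.41 and 8.61 CPM in MEL-18 WT cells and 4.64, 4.61 and 6.09 CPM in CON cells. The 3 groups did not overlap, with MEL-18 T334A lowest and MEL-18 WT highest. CA9 was 2.81-fold lower in MEL-18 T334A than in MEL-18 WT cells (log2 fold change -1.49 ± 0.11, edgeR adjusted p = 6.32e-11). It was 1.70-fold lower in MEL-18 T334A than in CON cells (-0.77 ± 0.13, adjusted p = 1.57e-05) and 1.65-fold higher in MEL-18 WT than in CON cells (0.72 ± 0.10, adjusted p = 4.26e-06). These values rest on 308, 889 and 498 counts over the 3 libraries of MEL-18 T334A, MEL-18 WT and CON.

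CA12 had 31.1, 33.4 and 34.0 CPM in MEL-18 T334A cells and 36.6, 32.3 and 35.0 CPM in MEL-18 WT cells, against 15.6, 15.5 and 17.8 CPM in CON cells. Both MEL-18 lines lay above every CON library and overlapped each other. The rise over CON was 2.02-fold in MEL-18 T334A (1.01 ± 0.06, edgeR adjusted p = 1.02e-13) and 2.13-fold in MEL-18 WT cells (1.09 ± 0.06, adjusted p = 3.97e-14). MEL-18 T334A and MEL-18 WT differed by -0.08 ± 0.05, which was not called. CA9 thus made up 8.35% ± 1.52 of the summed CPM of both genes in MEL-18 T334A cells, 19.6% ± 1.2 in MEL-18 WT cells and 23.8% ± 1.48 in CON cells (SD, n = 3). Of 6 other carbonic anhydrases tested, 2 rose and 1 fell in MEL-18 T334A against CON (50% called), beside 45.9% of all tested genes. In MEL-18 T334A against MEL-18 WT, 1 fell (16.7% called, beside 40.9%). In MEL-18 WT against CON, 2 rose (33.3% called, beside 28.8%). CA2, a cytosolic form, was likewise above CON in both lines, by 1.45 ± 0.13 in MEL-18 T334A and 1.24 ± 0.13 in MEL-18 WT cells.

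Among the secreted products, ADM and ANGPTL4 were lower in MEL-18 T334A cells. ADM, which encodes the vasodilator peptide adrenomedullin, had 17.5, 17.0 and 17.3 CPM in MEL-18 T334A cells, 27.5, 29.2 and 28.9 CPM in MEL-18 WT cells and 26.3, 25.2 and 23.6 CPM in CON cells. The 3 groups did not overlap. ADM was 1.65-fold lower in MEL-18 T334A than in MEL-18 WT cells (-0.73 ± 0.05, edgeR adjusted p = 5.91e-12), 1.45-fold lower than in CON cells (-0.54 ± 0.05, adjusted p = 2.06e-09), and 1.14-fold higher in MEL-18 WT than in CON cells (0.19 ± 0.05, adjusted p = 0.00275). ANGPTL4, an inhibitor of lipoprotein lipase, had 9.49, 9.87 and 9.58 CPM in MEL-18 T334A cells, 11.7, 11.6 and 12.9 CPM in MEL-18 WT cells and 12.0, 13.4 and 12.8 CPM in CON cells. The MEL-18 T334A libraries lay below all others, and MEL-18 WT and CON overlapped. The change was -0.32 ± 0.07 against MEL-18 WT (edgeR adjusted p = 3.99e-04) and -0.40 ± 0.07 against CON (adjusted p = 1.85e-05), and that of MEL-18 WT against CON was -0.09 ± 0.06, not called. STC2, the secreted glycoprotein stanniocalcin 2, was near 1 CPM in all groups (1.09 ± 0.212, 1.06 ± 0.194 and 0.879 ± 0.131 CPM in MEL-18 T334A, MEL-18 WT and CON) and was not called in any comparison.

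DDIT4 (REDD1), an inhibitor of mTORC1 that hypoxia and other stresses induce, had 20.3, 20.1 and 17.8 CPM in MEL-18 T334A cells, 43.6, 30.9 and 32.5 CPM in MEL-18 WT cells and 28.1, 33.0 and 36.6 CPM in CON cells. All MEL-18 T334A libraries lay below all others, and MEL-18 WT, with 1 high library, overlapped CON. The change was -0.88 ± 0.09 against MEL-18 WT (edgeR adjusted p = 2.75e-08) and -0.71 without MEL-18 WT replicate 1. Against CON it was -0.75 ± 0.10 (adjusted p = 3.72e-07). MEL-18 WT and CON differed by 0.13 ± 0.09, not called (adjusted p = 0.286). It was called with no filter (edgeR adjusted p = 0.0229), and its sign differed under 1 of the 17 alternatives. DDIT4 is also a target of the stress factor ATF4. Of 14 listed ATF4 and stress genes, 6 (42.9%) fell in MEL-18 T334A against MEL-18 WT cells and the other 8 were not called. Of all tested genes, 40.9% were called there, 20.0% lower. The stress-induced cytokine GDF15 fell by 1.87 ± 0.12 on the log2 scale in that comparison. In MEL-18 T334A against CON, 1 of the 14 rose and 4 fell (35.7% called), beside 45.9% of all tested genes. In MEL-18 WT against CON, 6 of the 14 rose and 1 fell (50% called), beside 28.8%. The part of these genes in the DDIT4 result was not tested.

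The prolyl hydroxylase genes EGLN3 and P4HA2 were higher in both MEL-18 lines than in CON. EGLN3 (PHD3), a HIF prolyl hydroxylase that HIF itself induces, had 12.5, 14.2 and 13.0 CPM in MEL-18 T334A cells and 13.5, 13.6 and 12.8 CPM in MEL-18 WT cells, against 8.39, 8.39 and 10.3 CPM in CON cells. Both MEL-18 lines lay above CON and overlapped each other. The rise was 0.56 ± 0.08 in MEL-18 T334A (edgeR adjusted p = 9.48e-07) and 0.56 ± 0.08 in MEL-18 WT (adjusted p = 1.58e-06). EGLN1 (PHD2), the main HIF prolyl hydroxylase with oxygen present, was higher than CON by only 0.10 ± 0.03 in MEL-18 T334A and 0.10 ± 0.03 in MEL-18 WT cells. Its call was lost in MEL-18 T334A without CON replicate 3 (adjusted p = 0.0522), and in MEL-18 WT without any 1 of MEL-18 WT replicates 1 and 2 and CON replicates 2 and 3 (adjusted p = 0.0640 to 0.107).

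P4HA2, a catalytic subunit of collagen prolyl 4-hydroxylase, had 40.8, 41.4 and 39.5 CPM in MEL-18 T334A cells, 37.7, 35.3 and 35.1 CPM in MEL-18 WT cells and 29.7, 30.6 and 32.0 CPM in CON cells. The groups did not overlap, in the order MEL-18 T334A, MEL-18 WT, CON. The changes were 0.17 ± 0.04 between the MEL-18 lines (edgeR adjusted p = 0.00141), 0.40 ± 0.04 in MEL-18 T334A against CON (adjusted p = 1.76e-08) and 0.23 ± 0.04 in MEL-18 WT against CON (adjusted p = 1.73e-04). Its paralog P4HA1 was lowest in MEL-18 T334A cells, at 88.2 ± 1.84, 91.3 ± 1.89 and 94.2 ± 1.96 CPM in MEL-18 T334A, MEL-18 WT and CON. The change of P4HA1 in MEL-18 T334A against CON was -0.10 ± 0.03, and the call was lost without MEL-18 T334A replicate 2 (adjusted p = 0.0668) or CON replicate 3 (adjusted p = 0.106) and with library totals alone (adjusted p = 0.158). P4HA2 took 31.5% ± 0.619 of the pair's summed CPM in MEL-18 T334A cells, 28.3% ± 0.389 in MEL-18 WT cells and 24.6% ± 0.377 in CON cells.

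BNIP3 and BNIP3L (NIX), paired mitophagy receptors of the outer mitochondrial membrane, moved in opposite directions where MEL-18 WT cells were compared with either other group. BNIP3 had 116, 118 and 119 CPM in MEL-18 T334A cells, 133, 131 and 131 CPM in MEL-18 WT cells and 105, 104 and 104 CPM in CON cells. BNIP3L had 135, 134 and 127 CPM in MEL-18 T334A cells, 104, 101 and 104 CPM in MEL-18 WT cells and 133, 137 and 141 CPM in CON cells. The groups did not overlap for BNIP3, with MEL-18 WT highest, while for BNIP3L every MEL-18 WT library was below all others and MEL-18 T334A overlapped CON. BNIP3 changed by -0.16 ± 0.03 in MEL-18 T334A against MEL-18 WT, by 0.18 ± 0.03 in MEL-18 T334A against CON and by 0.34 ± 0.03 in MEL-18 WT against CON (edgeR adjusted p = 5.47e-05, 1.40e-05 and 6.83e-10). BNIP3L changed by 0.36 ± 0.03 in MEL-18 T334A against MEL-18 WT and by -0.41 ± 0.03 in MEL-18 WT against CON (edgeR adjusted p = 1.21e-09 and 1.39e-10), and by -0.05 ± 0.03, not called, in MEL-18 T334A against CON. BNIP3L thus made up 52.9% ± 1.04 of the pair in MEL-18 T334A cells, 43.9% ± 0.358 in MEL-18 WT cells and 56.8% ± 0.720 in CON cells, while the sum of both stayed between 234.6 and 249.9 CPM as group means.

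**Figure D2:**
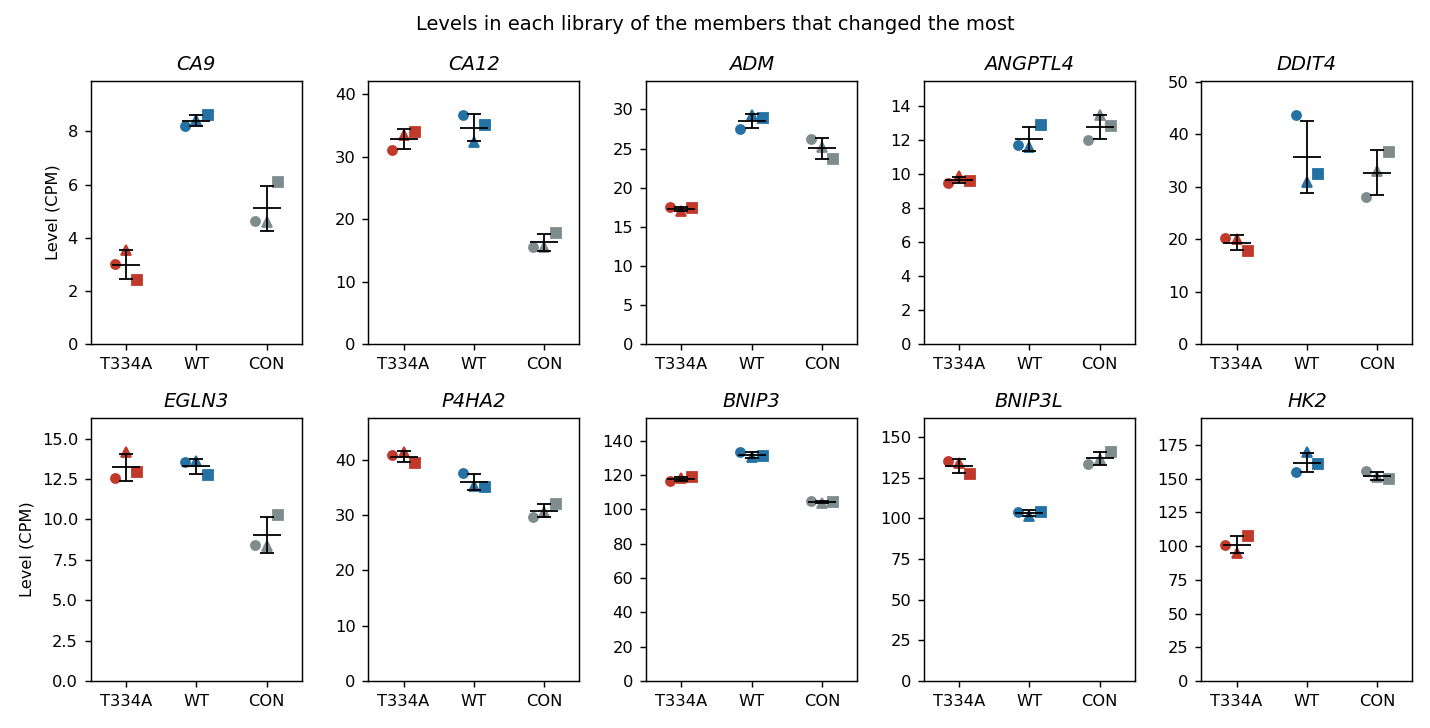
Level in CPM (y axis, from 0) in each library (circle, triangle and square for replicates 1, 2 and 3; bars, mean ± SD) of MEL-18 T334A, MEL-18 WT and CON cells for the 10 members that changed the most (called with a rise past 25% or the matching fall). CA9, ADM, ANGPTL4, DDIT4 and HK2 are lowest in every MEL-18 T334A library, CA12 and EGLN3 are lowest in every CON library, and BNIP3L is lowest in every MEL-18 WT library.

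The members that steer carbon away from or into glycolysis changed less. PDK1, the kinase that shuts off pyruvate dehydrogenase and so keeps pyruvate out of mitochondria, was measured at 31.2 ± 0.888, 38.6 ± 0.780 and 33.8 ± 1.60 CPM in MEL-18 T334A, MEL-18 WT and CON cells. It fell by 0.31 ± 0.04 in MEL-18 T334A against MEL-18 WT (edgeR adjusted p = 1.24e-06) and rose by 0.19 ± 0.04 in MEL-18 WT against CON (adjusted p = 7.91e-04). Against CON, PDK1 in MEL-18 T334A changed by -0.12 ± 0.04, a call lost without MEL-18 T334A replicate 2 or 3 or CON replicate 3 (adjusted p = 0.0729 to 0.214), with DESeq2 (0.0682) and with library totals alone (0.149). PFKFB3 makes fructose 2,6-bisphosphate, the activator of phosphofructokinase, and followed the pattern of PDK1. It fell by 0.24 ± 0.03 in MEL-18 T334A against MEL-18 WT and rose by 0.21 ± 0.03 in MEL-18 WT against CON (edgeR adjusted p = 3.72e-06 and 4.03e-05). Its paralog PFKFB4 rose by 0.16 ± 0.06 in MEL-18 T334A against MEL-18 WT, a call lost without MEL-18 T334A replicate 1 or 2 or MEL-18 WT replicate 2 (adjusted p = 0.0860 to 0.129). In MEL-18 T334A against CON it was not called (0.13 ± 0.06), but was without MEL-18 T334A replicate 3 (adjusted p = 0.00154) or CON replicate 3 (adjusted p = 0.0102).

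In glycogen synthesis, the branching enzyme GBE1 stood at 99.7 ± 2.69, 120 ± 1.71 and 113 ± 1.3 CPM in MEL-18 T334A, MEL-18 WT and CON cells. It fell by 0.27 ± 0.03 against MEL-18 WT and by 0.18 ± 0.03 against CON in MEL-18 T334A cells (edgeR adjusted p = 7.75e-08 and 3.24e-05). The 0.09 ± 0.03 rise of GBE1 in MEL-18 WT against CON lost its call without any 1 of MEL-18 WT replicates 2 and 3 and CON replicates 1 and 3 (adjusted p = 0.0548 to 0.0857). GYS1, the muscle-type glycogen synthase, was at 68.0 ± 0.872, 67.4 ± 0.970 and 70.8 ± 1.86 CPM and was not called in any comparison. Of 13 other tested glycogen genes, 4 rose and 4 fell in MEL-18 T334A against MEL-18 WT cells, 3 rose and 3 fell against CON, and in MEL-18 WT against CON 2 rose and 3 fell. The shares called were 61.5%, 46.2% and 38.5%, beside 40.9%, 45.9% and 28.8% of all tested genes.

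Of the remaining HIF targets, NDRG1, a stress-responsive gene linked to differentiation, was at 94.4 ± 7.46, 110 ± 6.70 and 116 ± 8.18 CPM in MEL-18 T334A, MEL-18 WT and CON cells. It fell in MEL-18 T334A by 0.22 ± 0.05 against MEL-18 WT and by 0.29 ± 0.05 against CON (edgeR adjusted p = 8.01e-04 and 2.22e-05). MXI1, which antagonises MYC, rose by 0.21 ± 0.05 in MEL-18 T334A against CON (adjusted p = 0.00115). In MEL-18 WT against CON, MXI1 was not called (0.12 ± 0.05), but was without MEL-18 T334A replicate 3 (adjusted p = 0.0476) or CON replicate 2 (adjusted p = 0.0260) and with library totals alone (adjusted p = 0.0391). The clock-linked repressor BHLHE40 fell by 0.17 ± 0.05 in MEL-18 WT against CON, a call lost with library totals alone (adjusted p = 0.0606) and without any 1 of MEL-18 WT replicates 2 and 3 and CON replicates 2 and 3 (adjusted p = 0.0820 to 0.136). In MEL-18 T334A against MEL-18 WT, BHLHE40 was not called (0.12 ± 0.05), but was without MEL-18 T334A replicate 3 (adjusted p = 2.56e-04) and with no filter. ANKRD37, an ankyrin repeat protein, was at 1.19 ± 0.0333, 1.33 ± 0.210 and 1.49 ± 0.0873 CPM and was not called in any comparison.

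Hexokinases catalyse the first step of glycolysis, and HK2, the inducible form found in many tumours, changed the most of the 16 enzymes in both comparisons of MEL-18 T334A. HK2 had 101, 94.9 and 107 CPM in MEL-18 T334A cells, 155, 170 and 161 CPM in MEL-18 WT cells and 155, 151 and 150 CPM in CON cells. Every MEL-18 T334A library was below all others, and MEL-18 WT overlapped CON at 155 CPM. HK2 was 1.60-fold lower in MEL-18 T334A than in MEL-18 WT (-0.68 ± 0.04, edgeR adjusted p = 9.69e-14) and 1.5-fold lower than in CON (-0.59 ± 0.04, adjusted p = 1.39e-12). In MEL-18 WT against CON the 0.09 ± 0.04 difference of HK2 was not called (adjusted p = 0.0602), though it was under 7 of 17 alternatives, including the removal of MEL-18 T334A replicate 2 or 3 or MEL-18 WT replicate 1 (adjusted p = 0.0124 to 0.0321). HK1, the more ubiquitous form, rose where HK2 fell, with 336 ± 4.94 CPM in MEL-18 T334A, 299 ± 7.40 CPM in MEL-18 WT cells and 306 ± 2.26 CPM in CON cells. Its change was 0.17 ± 0.03 against MEL-18 WT and 0.14 ± 0.03 against CON (edgeR adjusted p = 1.93e-05 and 1.99e-04).

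In the steps that split and rearrange the sugar, GPI (glucose 6-phosphate isomerase) fell in MEL-18 T334A cells by 0.15 ± 0.03 against MEL-18 WT and by 0.17 ± 0.03 against CON (edgeR adjusted p = 1.71e-04 and 3.15e-05). Of the phosphofructokinases, which commit sugar to glycolysis, PFKM was not called in any comparison. PFKP was above CON by 0.09 ± 0.03 in MEL-18 T334A and by 0.10 ± 0.03 in MEL-18 WT cells. PFKL was higher in MEL-18 WT than in CON by 0.15 ± 0.04 (adjusted p = 0.00183). Its fall of 0.11 ± 0.04 in MEL-18 T334A against MEL-18 WT lost its call without MEL-18 T334A replicate 1, MEL-18 WT replicate 1 or MEL-18 WT replicate 2 (adjusted p = 0.0654 to 0.133) and with library totals alone (adjusted p = 0.0531). The aldolase ALDOA, which cleaves fructose 1,6-bisphosphate, stood at 945 ± 35.8 CPM in MEL-18 T334A cells, 1088 ± 32.5 CPM in MEL-18 WT cells and 1106 ± 30.6 CPM in CON cells, a fall of 0.20 ± 0.03 against MEL-18 WT and 0.23 ± 0.03 against CON. TPI1 (triosephosphate isomerase) was not called in any comparison, except with library totals alone in MEL-18 T334A against CON.

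In the energy-yielding steps, GAPDH and PKM were not called, while PGK1, PGAM1, ENO1 and LDHA fell in MEL-18 T334A against MEL-18 WT. GAPDH, the dehydrogenase that gives the first NADH, was at 4953 ± 113, 5150 ± 206 and 5037 ± 126 CPM in MEL-18 T334A, MEL-18 WT and CON cells and was not called in any comparison. PKM, the pyruvate kinase, was at 2818 ± 56.9, 2880 ± 65.2 and 2953 ± 37.7 CPM and was not called either, though in MEL-18 T334A against CON it was without MEL-18 T334A replicate 2 (adjusted p = 0.0393) and with DESeq2 (adjusted p = 0.0249), limma voom or no filter. Phosphoglycerate kinase PGK1, phosphoglycerate mutase PGAM1, enolase ENO1 and lactate dehydrogenase LDHA all fell in MEL-18 T334A against MEL-18 WT. The falls were 0.20 ± 0.03 for PGK1, 0.14 ± 0.03 for PGAM1, 0.14 ± 0.03 for ENO1 and 0.20 ± 0.03 for LDHA (edgeR adjusted p = 8.82e-07, 9.80e-04, 5.92e-04 and 1.13e-06). Against CON, PGK1, ENO1 and LDHA fell by 0.15 ± 0.03, 0.17 ± 0.03 and 0.20 ± 0.03, and PGAM1 was not called (-0.06 ± 0.03). LDHA, which turns pyruvate into lactate, was at 2241 ± 31.2 CPM in MEL-18 T334A, 2582 ± 9.34 CPM in MEL-18 WT cells and 2579 ± 49.0 CPM in CON cells. In MEL-18 WT against CON, none of PGK1, ENO1 and LDHA was called, apart from PGK1 with library totals alone, and PGAM1, not called either, was called without MEL-18 T334A replicate 2 or 3 or CON replicate 2 (adjusted p = 0.00727 to 0.0493) and under 4 alternatives of scaling, filter or samples.

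The brain-type isoforms ALDOC and ENO2 were higher where ALDOA and ENO1 were lower. ALDOC was at 60.5 ± 3.55, 55.9 ± 1.78 and 50.9 ± 2.64 CPM, and ENO2 at 98.2 ± 5.46, 90.7 ± 3.02 and 83.8 ± 1.74 CPM, in MEL-18 T334A, MEL-18 WT and CON cells. In MEL-18 T334A against CON, ALDOC rose by 0.25 ± 0.04 and ENO2 by 0.23 ± 0.04 (edgeR adjusted p = 2.50e-05 and 1.19e-05). The smaller rises against MEL-18 WT (0.11 ± 0.04 and 0.12 ± 0.04) depended on single libraries. The call of ALDOC was lost without MEL-18 T334A replicate 2 or MEL-18 WT replicate 2 or 3 (adjusted p = 0.0785 to 0.228), with DESeq2 (0.0591) and with the replicate number as a block (0.0529). That of ENO2 was lost without MEL-18 T334A replicate 2 (adjusted p = 0.121) or MEL-18 WT replicate 1 (adjusted p = 0.0894). In MEL-18 WT against CON the rises were 0.14 ± 0.04 for ALDOC and 0.11 ± 0.04 for ENO2. There the call of ALDOC was lost without MEL-18 WT replicate 1 or CON replicate 1 or 2 (adjusted p = 0.0647 to 0.106), and that of ENO2 without MEL-18 WT replicate 2 or 3 or CON replicate 3 (adjusted p = 0.0566 to 0.112).

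As shares of summed CPM, HK2 made up 23.1% ± 1.34 of HK1 plus HK2 in MEL-18 T334A, 35.1% ± 0.930 in MEL-18 WT and 33.2% ± 0.334 in CON cells. ALDOC made up 6.02% ± 0.364 of both aldolases in MEL-18 T334A, 4.89% ± 0.290 in MEL-18 WT and 4.40% ± 0.318 in CON cells. LDHA made up 67.0% ± 0.401 of LDHA plus LDHB in MEL-18 T334A, 70.9% ± 0.380 in MEL-18 WT and 70.0% ± 0.608 in CON cells. The MEL-18 T334A libraries lay outside the range of all other libraries for each of these shares. With 3 libraries against 3, an exact permutation test cannot give a two-sided p below 0.10, so these shares are given as values. LDHB, the form that favours pyruvate, was called in none of the comparisons except MEL-18 T334A against MEL-18 WT with library totals alone, at 1104 ± 25.0, 1058 ± 23.3 and 1105 ± 51.3 CPM.

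**Figure D3:**
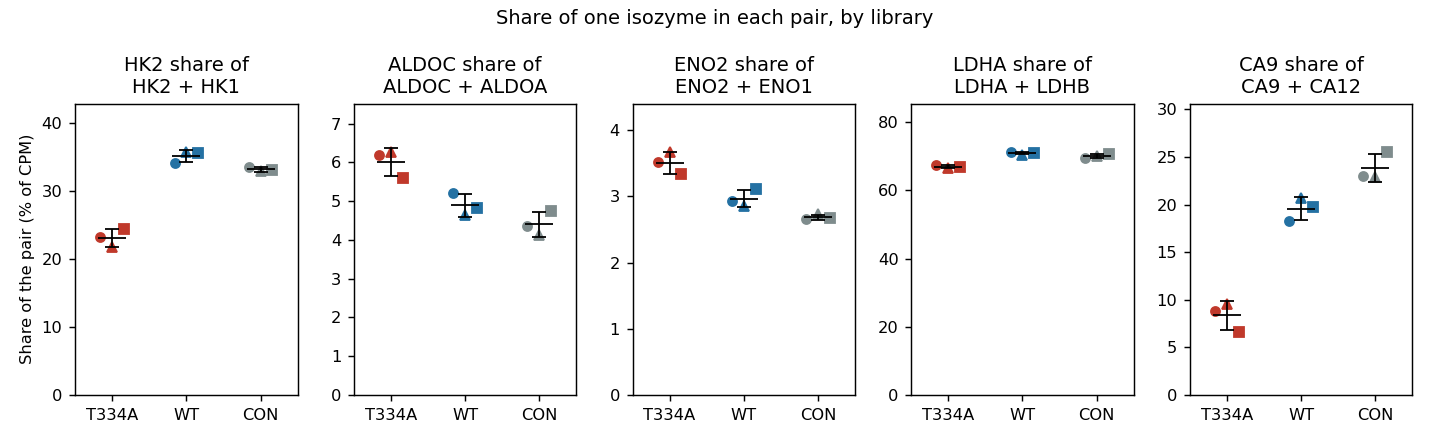
Share of one gene in the summed CPM of a pair of related genes (y axis, %, from 0) in each library (circle, triangle and square for replicates 1, 2 and 3; bars, mean ± SD) of MEL-18 T334A, MEL-18 WT and CON cells. The share of HK2 is lowest in the 3 MEL-18 T334A libraries, with a mean of 23.1%.

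Per kilobase of exon, 11 of the 16 glycolytic enzymes lay above every other HIF target in CON cells, and 5 (PFKL, ENO2, HK2, PFKM and ALDOC) lay within the range of those targets. In CON cells the levels were 2265 CPM per kb for GAPDH, 1263 for ENO1, 891 for PKM and 869 for LDHA, and the lowest was 25.0 CPM per kb for ALDOC. Among the other HIF targets, BNIP3 was highest at 36.4 CPM per kb and STC2 lowest at 0.164. The 16 enzymes together took 1.72% to 1.89% of all counts of a library. Their summed level was 17251 ± 287 CPM in MEL-18 T334A cells, 18464 ± 463 CPM in MEL-18 WT cells and 18402 ± 283 CPM in CON cells, with every MEL-18 T334A library below all others. The sum is carried by GAPDH, ENO1, PKM and LDHA. The 21 other HIF targets summed to 1039 ± 22.7 CPM in MEL-18 T334A, 1107 ± 19.1 CPM in MEL-18 WT cells and 1063 ± 25.7 CPM in CON cells, and there MEL-18 T334A and CON overlapped. GAPDH, LDHA, PGK1, ENO1, TPI1, PGAM1 and ALDOA have pseudogenes or close copies, and the rule for multi-mapping reads was not stated in the sources used, so their levels carry that uncertainty.

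Neighbouring genes on the chromosome moved together with some members. For each member the median log2 fold change of up to 20 tested genes on each side was taken, by RefSeq order. The window ends with the chromosome, so it held 27 genes for BHLHE40, 28 for PFKP, 31 for ANKRD37 and 34 for BNIP3, and 40 for each of the other members. This median passed 0.1 in size for 13 of the 37 members in MEL-18 T334A against MEL-18 WT, for 12 in MEL-18 T334A against CON and for 5 in MEL-18 WT against CON. The share of all tested genes with such neighbours was not taken, so these counts do not set the members apart. Members that lie close together on a chromosome can also share neighbours. BNIP3L stood beside neighbours with a median of 0.34 in MEL-18 T334A against MEL-18 WT, where its own change was 0.36, and of -0.21 in MEL-18 WT against CON, where its own was -0.41. HK1 changed by 0.17 beside neighbours at 0.17, and in MEL-18 T334A against CON by 0.14 beside 0.18. PGK1 changed by -0.20 in MEL-18 T334A against MEL-18 WT beside neighbours at -0.14, and GBE1 by -0.27 beside -0.13. In MEL-18 T334A against CON, MXI1 changed by 0.21 beside 0.22 and BNIP3 by 0.18 beside 0.37. Other values went against the neighbours. In MEL-18 T334A against MEL-18 WT, BNIP3 changed by -0.16 beside neighbours at 0.19. P4HA1 (-0.05 beside 0.22) and GAPDH (-0.06 beside 0.11), neither of them called, were also opposite in sign there.

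The largest changes were not shared by neighbours to that extent. In MEL-18 T334A against MEL-18 WT the neighbours of CA9 stood at -0.13, those of ADM at -0.01, those of HK2 at -0.09 and those of DDIT4 at 0.23, the last being opposite in sign to DDIT4 itself. In the comparisons with CON the neighbours of CA12, EGLN3 and P4HA2 stood between -0.04 and 0.05. The part of such regional shifts in the change of a member was not tested.

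**Figure D4:**
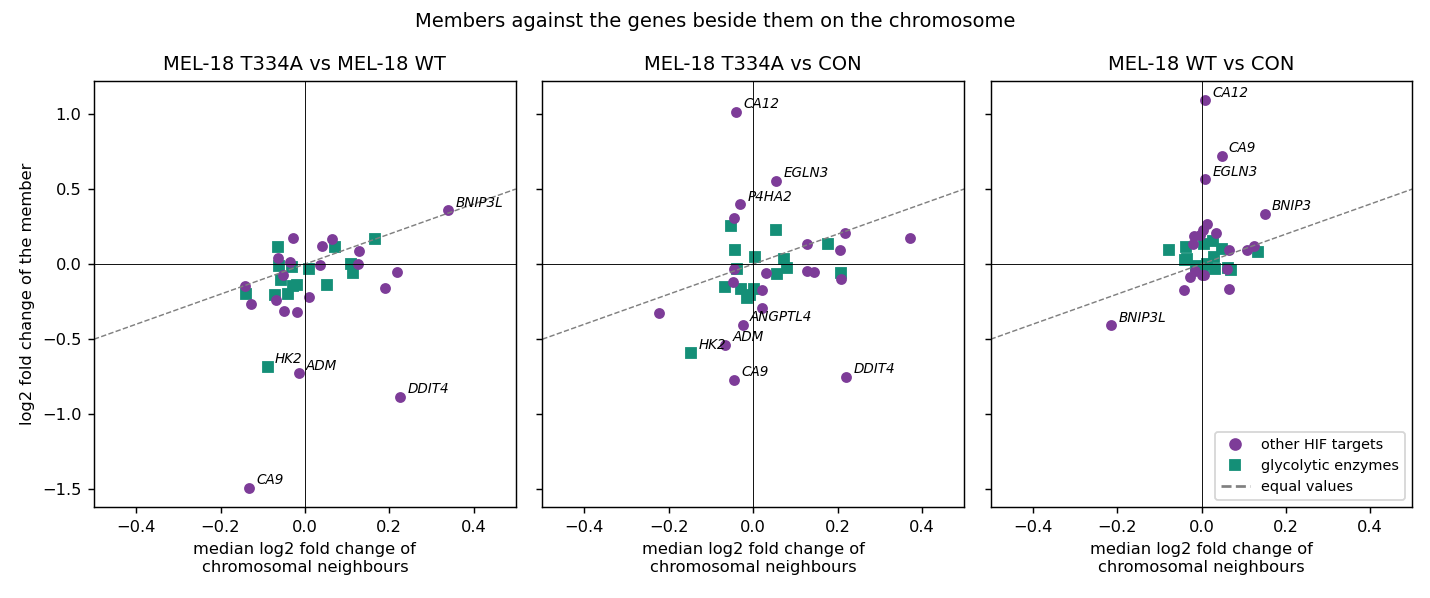
Log2 fold change of each member (y axis) against the median log2 fold change of its 27 to 40 neighbours on the chromosome (x axis) in the 3 comparisons; circles are other HIF targets, squares glycolytic enzymes, and the dashed line marks equal values. BNIP3L lies on the line in MEL-18 T334A against MEL-18 WT (0.36 beside 0.34), while CA9 (-1.49 beside -0.13) and DDIT4 (-0.88 beside 0.23) lie far below it.

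Among the HIF subunits, RNA of EPAS1, ARNT and ARNT2 changed in at least 1 comparison and that of HIF1A did not pass the test. HIF1A, which encodes HIF-1 alpha, was at 456 ± 15.7, 475 ± 10.3 and 460 ± 8.30 CPM in MEL-18 T334A, MEL-18 WT and CON cells and was not called in any comparison, except in MEL-18 T334A against MEL-18 WT without MEL-18 T334A replicate 2 (adjusted p = 0.0415). EPAS1, which encodes HIF-2 alpha, fell by 0.28 ± 0.06 in MEL-18 T334A against CON (edgeR adjusted p = 1.87e-04), beside neighbours at -0.28. EPAS1 also fell by 0.16 ± 0.05 in MEL-18 WT against CON (adjusted p = 0.0311), beside neighbours at -0.09, a call lost under 7 of the 17 alternatives, among them DESeq2 (0.0529) and the removal of MEL-18 WT replicate 2 or 3 or CON replicate 2 or 3 (adjusted p = 0.0816 to 0.205). ARNT was lower in MEL-18 WT than in CON by 0.25 ± 0.04 (adjusted p = 3.69e-06), beside neighbours at -0.20, and higher in MEL-18 T334A than in MEL-18 WT by 0.15 ± 0.04. In MEL-18 T334A against CON, ARNT was also called lower (-0.10, beside neighbours at -0.11), a call lost under 7 of the 17 alternatives. Its paralog ARNT2 rose in both MEL-18 lines against CON, by 0.63 ± 0.05 in MEL-18 T334A and 0.30 ± 0.05 in MEL-18 WT cells. CITED2, which competes with HIF for its coactivators, fell by 0.44 ± 0.03 and 0.15 ± 0.03 in the same comparisons. HIF1AN, the asparaginyl hydroxylase of HIF, was higher in MEL-18 T334A than in CON by 0.10 ± 0.03 (edgeR adjusted p = 0.00515) and in MEL-18 WT than in CON by 0.09 ± 0.03 (adjusted p = 0.0279), the second call being lost without MEL-18 WT replicate 1 or 3 or CON replicate 2 or 3 (adjusted p = 0.0646 to 0.0917). VHL was higher in MEL-18 T334A than in CON by 0.08 ± 0.03 (adjusted p = 0.0398), a call lost under 8 of the 17 alternatives, 5 of them the removal of MEL-18 T334A replicate 1 or 2, MEL-18 WT replicate 1 or CON replicate 2 or 3 (adjusted p = 0.0503 to 0.130). EGLN2 had 7, 4 and 9 counts over the 3 libraries of MEL-18 T334A, MEL-18 WT and CON and was not tested. It overlaps a read-through gene in the annotation, so its level is uncertain. In all, of 13 tested genes of this machinery list, 3 rose and 2 fell in MEL-18 T334A against MEL-18 WT, 4 rose and 5 fell in MEL-18 T334A against CON, and 2 rose and 3 fell in MEL-18 WT against CON. The shares called were 38.5%, 69.2% and 38.5%, beside 40.9%, 45.9% and 28.8% of all tested genes.

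Of 29 tested HIF targets outside the 37, 12 fell and 6 rose in MEL-18 T334A against MEL-18 WT (median -0.10), 9 fell and 6 rose against CON (-0.03), and in MEL-18 WT against CON 9 fell and 5 rose (-0.01). The shares called were 62.1%, 51.7% and 48.3%, beside 40.9%, 45.9% and 28.8% of all tested genes. VEGFA, the vascular growth factor, fell in MEL-18 T334A by 0.22 ± 0.04 against MEL-18 WT and 0.17 ± 0.04 against CON (edgeR adjusted p = 9.97e-05 and 0.00160). SLC2A1, the glucose transporter GLUT1 that feeds glycolysis, fell by 0.17 ± 0.03 and 0.30 ± 0.03 in those comparisons. PLOD2, a collagen lysyl hydroxylase, fell by 0.49 ± 0.04 and 0.61 ± 0.04. LOXL2, a lysyl oxidase that crosslinks collagen, rose by 0.49 ± 0.03 and 0.26 ± 0.03. In MEL-18 WT against CON, SLC2A1 and PLOD2 were also called lower (-0.13 each), and VEGFA was not called. The PLOD2 call was lost there without MEL-18 WT replicate 2 or CON replicate 3. LOXL2 was called lower in MEL-18 WT than in CON, at -0.24 to -0.21 over the 17 alternatives. TMEM45A was called lower in all 3 comparisons. Of 12 tested genes of pyruvate dehydrogenase, its kinases and pyruvate import, 4 rose and 2 fell in each comparison of MEL-18 T334A, and in MEL-18 WT against CON 1 rose and 4 fell. That was 50% called in each comparison of MEL-18 T334A and 41.7% in MEL-18 WT against CON. Of 12 other tested genes of glycolysis and lactate transport, 2 rose and 2 fell in MEL-18 T334A against MEL-18 WT, and 1 rose and 2 fell in MEL-18 T334A against CON. In MEL-18 WT against CON, 2 of these 12 fell and the other 10 were not called. The shares called of these 12 were 33.3%, 25% and 16.7% in the 3 comparisons, each below that of all tested genes.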

How the data were processed

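RNA of 9 MDA-MB-231 cultures (a triple-negative breast cancer line) was poly(A)-selected and sequenced with a stranded kit, per the labels' protocols. The deposited files hold raw counts per gene symbol, which the authors made with CASAVA 1.8, STAR 2.5.3a and featureCounts of Subread 1.5.3 on hg19, per the submitters' processing notes. Not given in the sources used here are the gene annotation, whether strand was used in counting, and the rule for multi-mapping reads.

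Genes passing edgeR's filterByExpr (14738 of 26364, with at least 99.95% of the counts) were scaled by TMM (factors 0.979 to 1.02) and tested with the two-sided quasi-likelihood F test (R 4.3.3, edgeR 4.0.16) fitted to all 9 libraries with 1 mean per group. The p-values were adjusted by Benjamini-Hochberg over all tested genes and called below 0.05. CPM are over TMM-scaled library sizes, and the SE of a log2 fold change is its size over the square root of F. The biological coefficient of variation was 2.57%. Counts over 3 libraries are given for genes with few reads, and the depth of 31643722 to 37005302 counts per library sets their precision. Levels per kb used exon lengths of GENCODE on GRCh38, and neighbours and promoters came from RefSeq GRCh38.p14, by symbol, so no coordinate of the hg19 files was used.

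The members, lists and tests were chosen with earlier results of these data known. Values in every library are given for members called with a rise past 25% or the matching fall (a fold change or its inverse), and genes of other lists are given as counts with at most 4 named, plus HIF1A, EPAS1, ARNT, VHL, EGLN2, HIF1AN, VEGFA and SLC2A1. ERO1L was listed under a symbol that the files do not use and was not counted. Replicates within a group differed by more than sampling noise (chi-square per degree of freedom 1.51 to 4.14). On simulated counts for the real genes, the test recovered 84% of genes changed 1.2-fold in MEL-18 T334A against MEL-18 WT, 72% in MEL-18 T334A against CON and 68% in MEL-18 WT against CON. Over all 4 simulated fold sizes (1.2, 1.5, 2 and 3), 16 of 205, 13 of 197 and 6 of 185 calls in these comparisons were false. Each fold size was given to 50 genes above 1 CPM, drawn anew for each comparison, so far fewer genes changed than were called in the data. These rates therefore do not carry over to the data and do not rank the comparisons. The 17 alternatives were DESeq2 1.42.0, limma voom (limma 3.58.1), RLE factors, library totals alone, no filter, at least 1 CPM in at least 3 libraries, the replicate number as a block, the compared groups alone and the removal of each of the 9 libraries. The labels name no batch.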

Additional observations from a re-analysis of the deposited data

How the results depend on the processing

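Of the calls of members, 19 of 23 in MEL-18 T334A against MEL-18 WT, 21 of 24 in MEL-18 T334A against CON and 11 of 16 in MEL-18 WT against CON were kept under all 17 alternatives, and 1, 3 and 5 uncalled members gained a call under at least 1. No called member reversed its sign under these alternatives. Called glycolytic enzymes in MEL-18 WT against CON numbered 4, and 7 with library totals alone. With library totals the median log2 fold change of all tested genes in that comparison was 0.0184, beside -0.0017 with TMM. The part of this shift in the 7 calls was not tested. Removing 1 library at a time gave 9 to 11, 10 to 11 and 3 to 6 called glycolytic enzymes in the 3 comparisons in that order, 11 to 13, 12 to 14 and 9 to 13 other HIF targets, and 4953 to 6315, 5843 to 6857 and 3430 to 4666 genes in all. With library totals alone, 64.0% of calls in MEL-18 T334A against CON were higher, beside 51.1% with TMM, and 60.1% beside 50.1% in MEL-18 WT against CON. The replicate numbers did not pair the samples, with correlations of deviations between -0.188 and 0.0669. With the replicate block, 5757, 6496 and 3963 genes were called, with 10, 10 and 4 glycolytic enzymes and 12, 14 and 12 other HIF targets. Among the named genes the block lost the calls of ALDOC in MEL-18 T334A against MEL-18 WT and EPAS1 in MEL-18 WT against CON. Depth limits CA9, STC2 and ANKRD37 the most among the members.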
